A study of Mus musculus with 6 samples.

Results

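The genes described here are 7 secreted or surface proteins of the conducting airway epithelium: the secretoglobins Scgb1a1, Scgb3a1 and Scgb3a2, the BPI-fold proteins Bpifa1 and Bpifb1, the Ly6/uPAR domain protein Lypd2 and the C-type lectin Reg3g. They were taken by platform gene symbol, which gave 8 probe sets (Bpifb1 had 2) out of 45037, and 7 genes out of 18193 with a probe set naming 1 gene. The values come from whole lung RNA of adult BALB/c mice of 3 genotypes on 6 Affymetrix mouse 430 2.0 arrays. WT mice were IL4R +/+ without a transgene, IL4R KO mice were IL4R -/- without a transgene, and IL4R KO + SMP8-IL4R mice were IL4R -/- and carried the SMP8-IL4R transgene (+/-), whose promoter the submitters describe as specific to smooth muscle. Every mouse received 2 to 3 µg of IL-13 into the trachea once a day for 7 days, with collection of the lungs 24 hours later. No group was untreated, so nothing below compares IL-13 with no IL-13. Each group had 2 arrays, each from RNA pooled from 4 mice. Transgenic mice lack the endogenous receptor in every cell, the airway epithelium included.

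Club cells are the secretory cells of the small airways. They release secretoglobins, small lipid-binding dimers, of which Scgb1a1 (uteroglobin, CC10) is the classical club cell product, while Scgb3a1 and Scgb3a2 are related dimers made along the airway. Bpifa1 (SPLUNC1) and Bpifb1 (LPLUNC1) belong to the family of bactericidal/permeability-increasing protein: Bpifa1 limits the epithelial sodium channel and acts on bacteria, and Bpifb1 is a product of mucous secretory cells. Reg3g binds peptidoglycan of Gram-positive bacteria. IL-13 acts through the IL-4 receptor alpha chain and is known to push secretory cells towards a mucous fate.

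Bpifa1 and Bpifb1 lie in the BPI-fold gene cluster of chromosome 2, and in the RefSeq gene order 1 protein-coding gene, Bpifa5, stands between them. They moved in opposite directions between WT and IL4R KO lungs, so the 250 bases before their annotated starts are shown, with those of Reg3g, which moved with Bpifb1. RefSeq sequences (GRCm38.p6) were taken by symbol and searched for 4 of the 7 genes, with 5 start sites. Scgb1a1 and Lypd2 had no entry, and Scgb3a2 was left out of the search. Bpifb1 has 2 annotated starts, and the arrays do not say which was used. The Bpifa1 window is chr2:154142630-154142879 (+ strand), the Bpifb1 windows are chr2:154190568-154190817 and chr2:154200130-154200379 (+ strand), and the Reg3g window is chr6:78468875-78469124 (- strand). Capitals mark matches, on either strand, to 6 short motifs: TTC and GAA spaced by 4 bases (STAT6), TTC and GAA spaced by 3 bases (STAT3), TGTTTAC for FOXA, CTCAAG for NKX2-1, GGG and TTTCC spaced by 2 bases (NF-kappaB), and TATAAA for the TATA box. No match overlapped another.
Bpifa1: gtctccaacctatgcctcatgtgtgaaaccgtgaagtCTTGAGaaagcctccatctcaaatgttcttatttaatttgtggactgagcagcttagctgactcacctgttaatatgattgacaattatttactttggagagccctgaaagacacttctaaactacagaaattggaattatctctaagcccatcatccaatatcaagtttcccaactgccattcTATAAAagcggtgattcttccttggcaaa
Bpifb1, upstream start: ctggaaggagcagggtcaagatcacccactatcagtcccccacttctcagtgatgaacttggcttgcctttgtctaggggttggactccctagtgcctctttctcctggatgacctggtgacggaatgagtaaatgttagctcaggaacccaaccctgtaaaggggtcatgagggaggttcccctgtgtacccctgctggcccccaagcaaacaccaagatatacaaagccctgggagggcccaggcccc
Bpifb1, downstream start: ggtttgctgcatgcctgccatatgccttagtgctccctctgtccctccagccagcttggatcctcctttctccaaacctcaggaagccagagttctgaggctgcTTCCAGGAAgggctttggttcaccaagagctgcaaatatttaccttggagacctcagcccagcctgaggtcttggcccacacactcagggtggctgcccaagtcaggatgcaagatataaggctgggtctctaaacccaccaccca
Reg3g: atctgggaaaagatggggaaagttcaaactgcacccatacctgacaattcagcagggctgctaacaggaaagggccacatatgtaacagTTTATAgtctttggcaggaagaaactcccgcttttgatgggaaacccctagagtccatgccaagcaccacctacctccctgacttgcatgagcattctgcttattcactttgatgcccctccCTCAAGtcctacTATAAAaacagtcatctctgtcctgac

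The downstream Bpifb1 start had 1 match to the STAT3 motif, 138 to 146 bases before the start, and the upstream start matched none of the 6 motifs. The Bpifa1 window held 1 NKX2-1 match and a TATA match 24 to 29 bases before its start. The Reg3g window held 1 NKX2-1 match and 2 TATA matches, the nearer one 22 to 27 bases before the start. The Scgb3a1 window, not shown, held 1 STAT3 and 1 NKX2-1 match. None of the 5 windows searched held the STAT6, FOXA or NF-kappaB letters, and Scgb1a1, Scgb3a2 and Lypd2 were not searched. Over all 32851 promoter windows of the same length, 7.02% held the STAT3 motif, 5.85% STAT6, 3.17% FOXA, 13.3% NKX2-1, 1.41% NF-kappaB and 12.4% TATA. These matches describe the letters and do not show binding.

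Values are given on the log2 scale of the deposited arrays, where the median over all probe sets and arrays was 7.10 and the highest value 14.76. The 7 genes lay above that median on every array, from 10.10 (Lypd2) to 14.75 (Scgb1a1), each gene being read by its brightest probe set. Club cell markers were present in each group. Of 12 club cell markers 11 were above the median in at least 2 arrays, among them Cyp2f2, a P450 of club cells, at 14.0 to 14.3, and Cckar at 10.1 to 10.7, while Upk3a lay at 6.45 to 6.71. Array medians ran from 7.08 to 7.11. Il4ra, the targeted gene, lay between 9.35 and 9.98 on the 6 arrays, and its probe sets are not known to lie within the deleted part, so they check no label. Hepatocyte transcripts were high in IL4R KO pool 1 and WT pool 2, where the mean log2 value of 10 liver genes was 10.1 and 9.61, against 6.55 to 6.78 in the other arrays. Results for the 7 genes are given without those arrays where that changed a call or a direction. Of the 33 genes of the other lists that passed between WT and IL4R KO, 33 kept their sign and 26 passed without them, an alternative chosen after seeing the data.

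**Figure D1:**
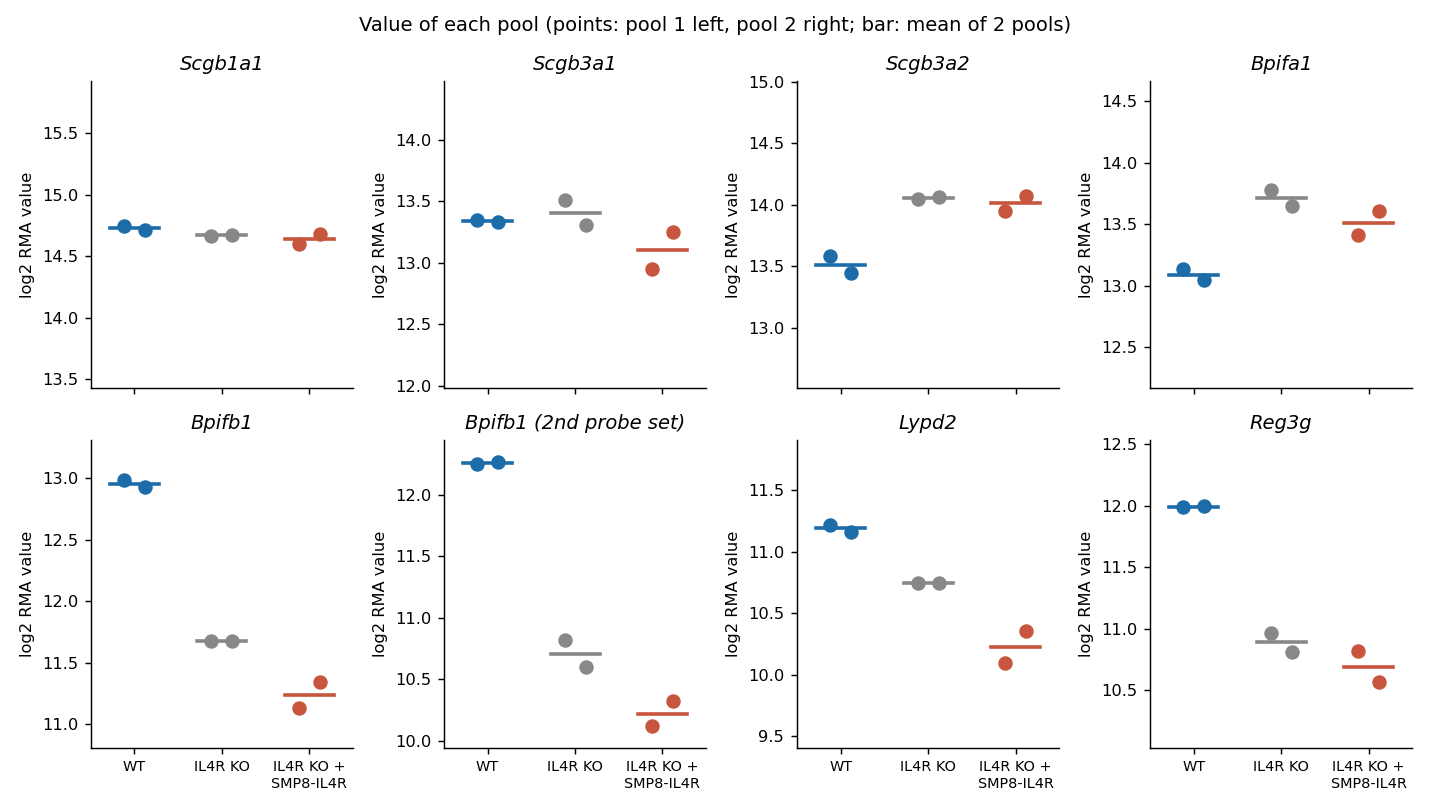
Log2 RMA value (vertical axis, 2.5 units in each panel) of the 8 probe sets in each genotype (horizontal axis), with 1 point per pool of 4 mice and a bar at the mean of 2 pools. The WT pools of Bpifb1, Reg3g and Lypd2 lie above every other pool, those of Scgb3a2 and Bpifa1 lie below every other pool, and Scgb1a1 spans 0.147 over the 6 arrays.

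WT and IL4R KO lungs were compared to see what changed when every cell lacked the receptor under the same IL-13 doses. The 7 genes did not move as a group. Bpifb1 and Reg3g were higher in WT, by 2.44-fold and 2.15-fold, Bpifa1 and Scgb3a2 were lower, and Scgb1a1, Scgb3a1 and Lypd2 did not pass an adjusted p of 0.05. Over all 11861 genes tested, 4.7% passed in this comparison, 2.77% higher and 1.92% lower in WT. The groups did not overlap for 6 of the 7 genes, against 51.6% of all genes tested: WT was higher for 4 of the 7 (22.5% of all genes) and lower for 2 (29.1%). The median difference of the 7 was 0.06, against -0.02 for all genes.

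For Bpifb1, the mucous cell BPI-fold protein, the WT pools read 12.99 and 12.93, the IL4R KO pools 11.67 and 11.68, and the transgenic pools 11.13 and 11.34. The WT pools stood above the other 4 and no groups overlapped. The WT mean exceeded the IL4R KO mean by 1.28 ± 0.09 (SE, n = 2 and 2; limma adjusted p = 0.00152), which placed it above 99.3% of genes. Its other probe set, whose x_at ending means that it can bind related transcripts, read 12.25 and 12.27 (WT), 10.82 and 10.60 (IL4R KO), then 10.12 and 10.32 (transgenic). That probe set differed by 1.55 ± 0.11 between WT and IL4R KO (adjusted p = 0.00174 over all 45037 probe sets, of which 1.58% passed). So both probe sets put Bpifb1 higher in WT. The call held under the 16 alternatives tried, with adjusted p from 0.000223 to 0.0310.

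Reg3g is the antibacterial lectin, and its WT pools read 11.99 and 12.00, its IL4R KO pools 10.96 and 10.81, its transgenic pools 10.82 and 10.57. The WT pools lay about 1 log2 unit above the rest, and the values of the other genotypes overlapped. Reg3g was higher in WT than in IL4R KO by 1.10 ± 0.10 (SE; adjusted p = 0.00480). Without WT pool 1 or WT pool 2 the difference was 1.11 and 1.10 and no longer passed (adjusted p = 0.0611 and 0.0598, within a range of 0.000983 to 0.0611 over the alternatives). Leaving out a WT pool took the number of genes that passed from 557 to 110 (pool 1) or 120 (pool 2).

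Bpifa1, in the same cluster as Bpifb1, had the opposite pattern. Its WT pools read 13.13 and 13.05, its IL4R KO pools 13.78 and 13.65, its transgenic pools 13.41 and 13.61. The WT pools were the lowest of the 6 and no groups overlapped. In WT it was 0.62 ± 0.09 below IL4R KO (SE; adjusted p = 0.0226), 0.649 times the IL4R KO level. The difference kept its sign but did not pass without WT pool 1 (-0.67, adjusted p = 0.160), without WT pool 2 (-0.58, adjusted p = 0.190), or without both arrays that held liver transcripts (-0.51, adjusted p = 0.0891); over the alternatives the adjusted p ran from 0.00525 to 0.190.

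Scgb3a2 is a secretoglobin of the bronchial epithelium. Its WT pools read 13.58 and 13.44, its IL4R KO pools 14.05 and 14.07, its transgenic pools 13.95 and 14.07. Here again the WT pools lay below the other 4, while the pools of the other genotypes overlapped. The WT mean was 0.54 ± 0.08 below the IL4R KO mean (SE; adjusted p = 0.0204), or 0.686 times its level. This call too was lost without WT pool 1 (-0.62, adjusted p = 0.109), WT pool 2 (-0.47, adjusted p = 0.170) or both arrays with liver transcripts (-0.48, adjusted p = 0.0697), in a range of 0.00307 to 0.170.

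Scgb1a1, the classical club cell protein, had the narrowest range of the 7 genes, 0.147. The WT pools read 14.75 and 14.71, the IL4R KO pools 14.66 and 14.67, and the transgenic pools 14.60 and 14.68. The WT pools were the highest 2 of the 6. The difference between WT and IL4R KO was 0.06 ± 0.06 (SE; adjusted p = 0.610), with a 95% interval from -0.09 to 0.21. Its highest value was 0.0071 below the highest value of the whole table, and 1 probe set of 45037 was brighter on average. Whether the top of the array's scale held its values together was not tested.

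Scgb3a1 is a secretoglobin of larger airways, with WT pools at 13.35 and 13.33, IL4R KO pools at 13.51 and 13.31, and transgenic pools at 12.95 and 13.25. The pools of WT and IL4R KO overlapped. Their difference was -0.07 ± 0.12 (SE; adjusted p = 0.773), with an interval from -0.36 to 0.22, and it turned to 0.03 without IL4R KO pool 1 and 0.04 without both arrays with liver transcripts. Among the 3 secretoglobins, then, Scgb3a2 alone passed in this comparison; whether its difference was larger than those of the others was not tested.

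Lypd2, a member of the Ly6/uPAR family whose role in the airway is little known, had WT pools at 11.22 and 11.16, IL4R KO pools at 10.75 and 10.74, and transgenic pools at 10.10 and 10.35. Pools of each genotype kept apart, with WT highest and the transgenic pools lowest. The difference of WT from IL4R KO, 0.45 ± 0.09 (SE), did not pass (adjusted p = 0.0621). It passed with a stricter filter on dim genes (adjusted p = 0.0453) and with a robust intensity trend (adjusted p = 0.0336), in a range of 0.0336 to 0.352 over the alternatives.

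**Figure D2:**
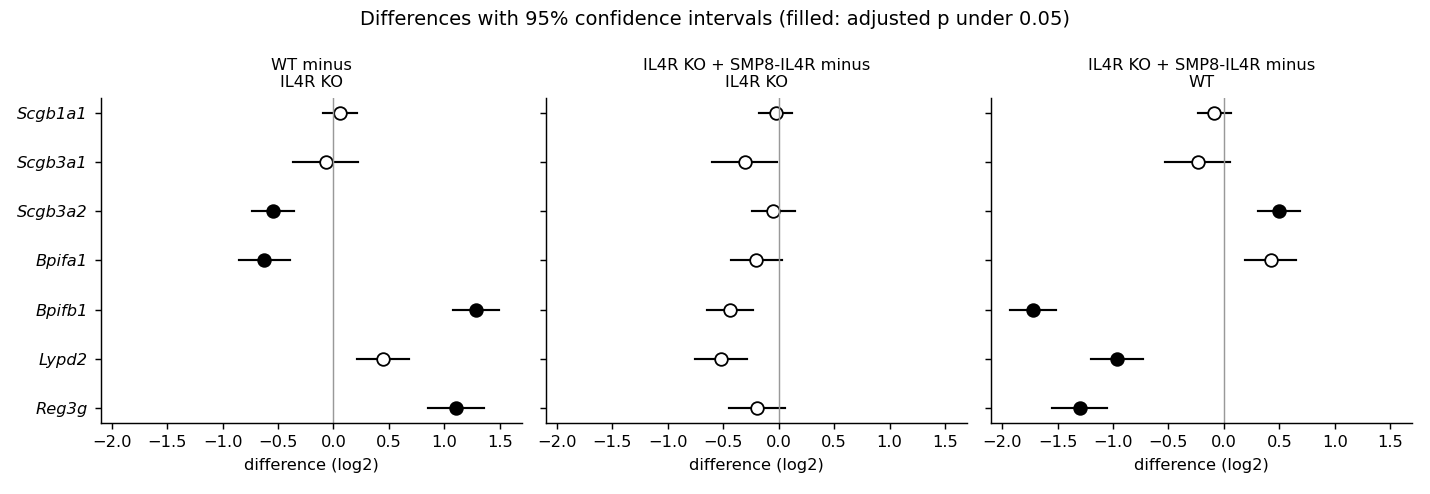
Difference of each of the 7 genes (log2, horizontal axis) in the 3 comparisons, as a point with its 95% confidence interval from limma, filled where the adjusted p was under 0.05. Against IL4R KO, WT lungs have 4 filled points, from -0.62 for Bpifa1 to 1.28 for Bpifb1, and the transgenic lungs have none, with 7 points below 0.

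The comparison of IL4R KO + SMP8-IL4R with IL4R KO asked what the receptor on smooth muscle changed. None of the 7 genes passed in limma, and 3 had an unadjusted p under 0.05. In this comparison 0.101% of all genes passed and 12.4% had an unadjusted p under 0.05. The 7 differences were below 0, as were 51.5% of all differences, and ranged from -0.52 for Lypd2 to -0.03 for Scgb1a1, with a median of -0.20 against -0.00468 for all genes. Groups did not overlap for 4 of the 7 (Scgb3a1, Bpifa1, Bpifb1 and Lypd2), against 41.7% of genes, and transgenic lungs were lower for these 4, as for 20.6% of genes.

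Lypd2 (-0.52 ± 0.09 SE, 95% interval -0.75 to -0.29) and Bpifb1 (-0.44 ± 0.09, interval -0.65 to -0.23) had the lowest p of the 7, both with an adjusted p = 0.219. The other Bpifb1 probe set differed by -0.49 (adjusted p = 0.283 over all probe sets, of which 0.0155% passed). For Bpifb1 and Reg3g the upper ends of the intervals were -0.23 and 0.05, against differences of 1.28 and 1.10 between WT and IL4R KO. Scgb3a1 differed by -0.31 (interval -0.60 to -0.02, adjusted p = 0.385), Bpifa1 by -0.20 (interval -0.43 to 0.03) and Reg3g by -0.20 (interval -0.45 to 0.05). Scgb3a2 differed by -0.05 (interval -0.24 to 0.14) and Scgb1a1 by -0.03 (interval -0.18 to 0.12). The last 2 turned to 0.01 without transgenic pool 1. Leaving out a single transgenic pool also moved the values of Scgb3a1 (-0.16 without pool 1, -0.46 without pool 2), Bpifa1 (-0.10 and -0.30) and Reg3g (-0.32 and -0.07), and leaving out IL4R KO pool 1 gave -0.21, -0.13 and -0.12.

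Transgenic pool 1 was below transgenic pool 2 for 6 of the 7 genes, Reg3g being the exception, as it was for 50.2% of all genes. The club, ciliated and basal cell markers had their lowest mean in that pool too, while the alveolar type 1 and type 2 markers had theirs in WT pool 1. The mean log2 value of the 12 club cell markers, 3 of them secretoglobins described here, was 11.57 and 11.65 (transgenic), 11.72 and 11.80 (IL4R KO) and 11.75 and 11.70 (WT). For 15 ciliated cell markers it was 8.92 and 9.08 (transgenic), 9.05 and 9.28 (IL4R KO) and 9.22 and 9.12 (WT). No gene of either list passed in this comparison, and the medians were -0.05 and -0.20. In whole lung RNA, fewer cells of a type and less RNA per cell cannot be told apart, and the part of airway epithelial content in the values of the 7 genes was not tested. The mean of 9 neutrophil genes was 10.58 in transgenic pool 1, 9.73 in IL4R KO pool 1 and 8.35 to 8.80 elsewhere.

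Set against WT, the transgenic lungs had lower Bpifb1 (-1.72 ± 0.09 SE, adjusted p = 0.000672), Reg3g (-1.30 ± 0.10, adjusted p = 0.00319) and Lypd2 (-0.97 ± 0.09, adjusted p = 0.00730), and higher Scgb3a2 (0.50 ± 0.08, adjusted p = 0.0352). Of all genes 2.84% passed here, 2.15% lower and 0.691% higher. Bpifb1 was at 0.303 times, Reg3g at 0.406 times and Lypd2 at 0.512 times the WT level. The other Bpifb1 probe set differed by -2.04 (adjusted p = 0.000622 over all probe sets, of which 1.04% passed). The groups did not overlap for 7 of the 7 genes, against 61.7% of all genes: 2 were higher in transgenic lungs (38.2% of all genes) and 5 lower (23.6%). Bpifa1 was 0.42 ± 0.09 above WT (adjusted p = 0.0897, from 0.0323 to 0.449 over the alternatives), and Scgb1a1 (-0.09) and Scgb3a1 (-0.24) did not pass (adjusted p = 0.513 and 0.364). The comparison shares its WT and transgenic arrays with the other comparisons, so it does not add independent support to them. Lypd2 did not pass without WT pool 1 (-0.94, adjusted p = 0.0961) or WT pool 2 (-0.99, adjusted p = 0.0779), in a range from 0.00196 to 0.0961. Scgb3a2 did not pass without WT pool 1 (0.57, adjusted p = 0.158), WT pool 2 (0.43, adjusted p = 0.264), transgenic pool 1 (0.56, adjusted p = 0.133) or transgenic pool 2 (0.44, adjusted p = 0.219), nor without both arrays with liver transcripts (adjusted p = 0.0895), with every probe set tested on its own (adjusted p = 0.0623) or with the pool number as a block (adjusted p = 0.0655), in a range from 0.00543 to 0.264.

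Relatives of the 7 genes were mostly dim in these lungs. Of 16 other secretoglobins 3 had a probe set, all below the median, at 3.17 to 6.86. Of 15 other BPI-fold and lipid transfer proteins 10 had a probe set and 3 were tested: the phospholipid transfer protein Pltp, the lipopolysaccharide-binding protein Lbp, and Bpifb5. Their differences between WT and IL4R KO were -0.12, -0.03 and 0.09, and none passed in any comparison. The other 7 lay between 3.29 and 6.67, Bpifa5, which stands between Bpifa1 and Bpifb1, at 6.52 to 6.67. Of the 13 cluster genes on chromosome 2, 9 had a probe set, and those above the median in at least 2 arrays were Bpifa1, Bpifb1 and Bpifb5, the gene after Bpifb1, which lay at 6.88 to 7.34. The 6 other Reg genes lay between 4.22 and 6.46 on every array, Reg3b at 5.96 to 6.40, below the median.

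Among 11 tested Ly6/uPAR relatives of Lypd2, 1 rose and 1 fell in WT against IL4R KO. Ly6g6e rose by 0.66 ± 0.07 (adjusted p = 0.00711) and Slurp1, a secreted member of the family, fell by 0.57 ± 0.08 (adjusted p = 0.0229). Ly6g6e lay below the median of all values in every IL4R KO and transgenic pool, at 6.79 to 7.03, and was tested through the WT pools alone. Gpihbp1, which carries lipoprotein lipase on capillary endothelium, differed by -0.39 (adjusted p = 0.0786). None of the 11 passed between transgenic and IL4R KO lungs, and the medians were 0.04 and -0.04.

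Other club cell genes moved in both directions. Of 20 tested genes of club cell metabolism and identity, 2 rose and 4 fell in WT against IL4R KO, with a median of -0.16. The glutathione transferase Gsto1 rose by 0.94 ± 0.08 (adjusted p = 0.00364) and the aldehyde dehydrogenase Aldh1a7 by 0.69 ± 0.08 (adjusted p = 0.00878), and the epoxide hydrolase Ephx1 fell by 0.54 ± 0.09 (adjusted p = 0.0286). Cyp4b1, a P450 that activates xenobiotics, fell by 0.41 (adjusted p = 0.0325), and Gsta3, another glutathione transferase, by 0.72 (adjusted p = 0.0465; -0.48 by its other probe set). Without both arrays with liver transcripts Cyp4b1 (-0.46, adjusted p = 0.0724) and Gsta3 (-0.59, adjusted p = 0.0535) did not pass. None of the 20 passed between transgenic and IL4R KO lungs, where the median was -0.10 and the lowest p belonged to Cyp4b1 (-0.20), Chad (-0.42) and Cyp2s1 (-0.20). Chad, chondroadherin, differed by 0.79 between WT and IL4R KO (adjusted p = 0.0516) and by -1.22 between transgenic and WT lungs (adjusted p = 0.0185, and 0.0570 without both arrays with liver transcripts).

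Secreted defence proteins gave 3 rises and 3 falls among 17 tested, with a median of -0.02 in WT against IL4R KO. Of 24 with a probe set, 7 were not tested. Among these, Duox1 read 6.94 and 7.10 in WT and 5.67 to 6.06 elsewhere. Dmbt1 went the other way, with 4.73 and 5.40 in WT and 6.16 to 7.09 elsewhere. The gel-forming mucin Muc5b rose by 2.17 ± 0.11 (adjusted p = 0.000726), the trefoil peptide Tff2 by 1.87 ± 0.13 (adjusted p = 0.00159) and the immunoglobulin transporter Pigr by 1.86 ± 0.14 (adjusted p = 0.00211). Lactoferrin, Ltf, which is also a neutrophil granule gene, fell by 1.07 ± 0.12 (adjusted p = 0.0111). Of 17 tested goblet and mucous markers, 16 rose, with a median of 2.83, and Scin, Fer1l6 and Muc5ac rose by 5.32, 4.72 and 3.69. Scin, Fer1l6, Muc5ac, Clca1, Itln1, Retnlb, Spdef and Foxa3 lay below the median of all values in every IL4R KO and transgenic pool. They were tested through the WT pools alone, so the count of 16 and the median of 2.83 depend in part on the filter. None of the 17 defence genes and none of the 17 goblet genes passed between transgenic and IL4R KO lungs, where the medians were -0.01 and -0.17 and Tff2 differed by -0.60 (adjusted p = 0.225).

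**Figure D3:**
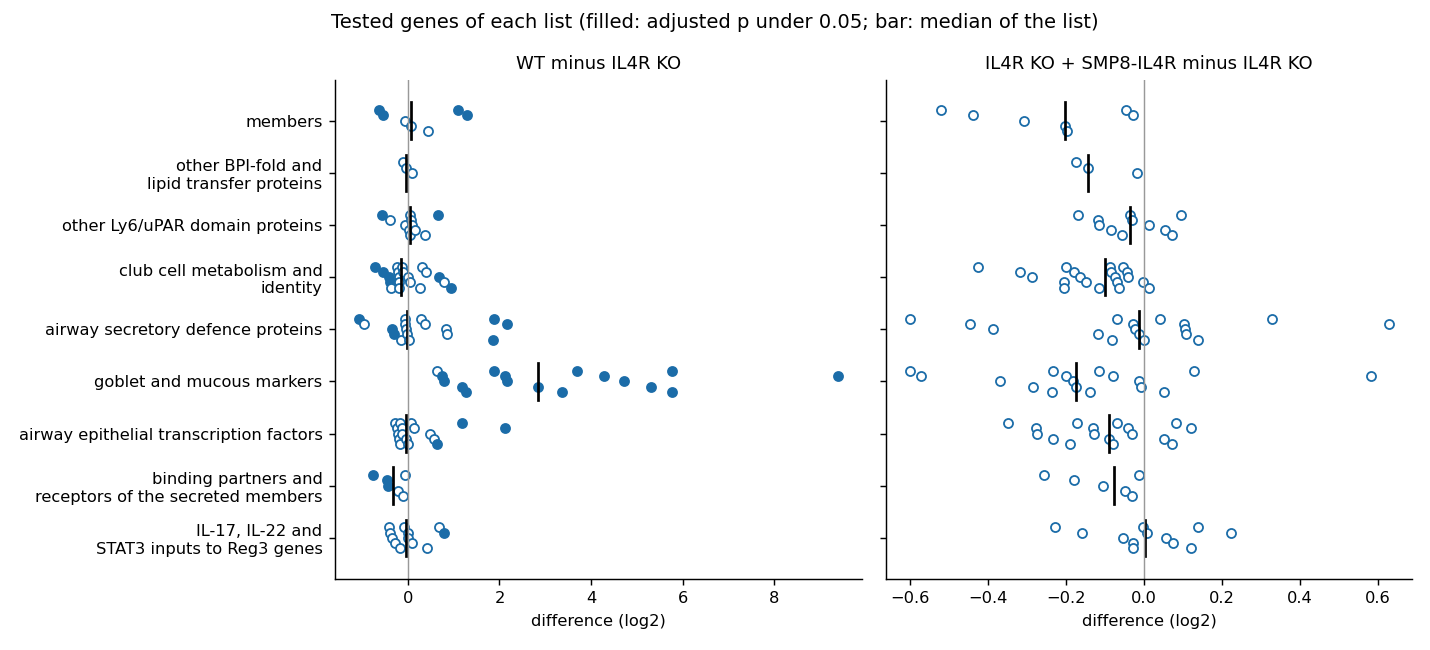
Differences (log2, horizontal axis, with a different range in each panel) of the tested genes of 9 lists (rows, the 7 genes of this report labelled members), filled where the adjusted p was under 0.05, with a bar at each list's median. The goblet and mucous markers lie between 0.64 and 9.38 in WT minus IL4R KO, the 6 binding partners lie below 0 there, and no gene is filled in the transgenic comparison. Several of the goblet and mucous markers were tested through the WT pools alone.

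Of 17 tested airway epithelial transcription factors, 3 rose in WT against IL4R KO: the mucous cell factors Spdef (1.19 ± 0.06, adjusted p = 0.000742) and Foxa3 (2.12 ± 0.23, adjusted p = 0.00857), and Ehf (0.64 ± 0.06, adjusted p = 0.00557). The other Ehf probe sets gave as little as 0.08. Spdef and Foxa3 lay below the median of all values in every IL4R KO and transgenic pool and were tested through the WT pools alone. Sox9, which was not tested, read 7.02 and 7.27 in WT and 6.30 to 6.46 elsewhere. The count of 3 thus depends in part on the filter. Nkx2-1, the lung lineage factor known to act on secretoglobin genes, lay between 7.37 and 7.92 and differed by -0.18 in WT (adjusted p = 0.405) and -0.35 in transgenic lungs (adjusted p = 0.331) from IL4R KO. None of the 17 passed between transgenic and IL4R KO lungs.

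Partners of the secreted proteins were taken as a list of 8, of which 6 were tested and 3 fell in WT against IL4R KO. Those 3 were the subunits of the epithelial sodium channel that Bpifa1 is known to limit: Scnn1b fell by 0.76 ± 0.06 (adjusted p = 0.00316), Scnn1a by 0.43 ± 0.06 (adjusted p = 0.0226) and Scnn1g by 0.44 ± 0.07 (adjusted p = 0.0331). Without both arrays with liver transcripts Scnn1a did not pass (-0.37, adjusted p = 0.0793). In transgenic lungs Scnn1b differed from IL4R KO by -0.25, Scnn1a by -0.18 and Scnn1g by -0.10, and none passed. Marco, a macrophage receptor reported to bind Scgb3a2, was not tested, with values from 5.84 to 6.97. Extl3, a receptor described for Reg3 proteins, differed by -0.06 and Lmbr1l, a lipocalin receptor, by -0.10, and neither passed.

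Signals known to induce Reg3 genes were compared as a list of 19, of which 12 were tested. The endotoxin receptor Tlr4 rose by 0.79 ± 0.08 in WT against IL4R KO (adjusted p = 0.00859; its other probe sets gave as little as 0.18), and the other 11 did not pass, with a median of -0.04 over the list. Nfkbiz differed by 0.42 (adjusted p = 0.0533; as little as 0.13 by its other probe sets) and the IL-17 receptor chain Il17ra by -0.39 (adjusted p = 0.0792). Il17a, Il22ra1 and Il6 lay between 4.57 and 6.09 and were not tested. In transgenic against IL4R KO lungs none of the 12 passed. Against WT, transgenic lungs had lower Nfkbiz (-0.58, adjusted p = 0.0286) and Tlr4 (-0.56, adjusted p = 0.0326). Their other probe sets went up to 0.09 for Nfkbiz and -0.32 for Tlr4. Without both arrays with liver transcripts these differences were -0.64 and -0.58.

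**Figure D4:**
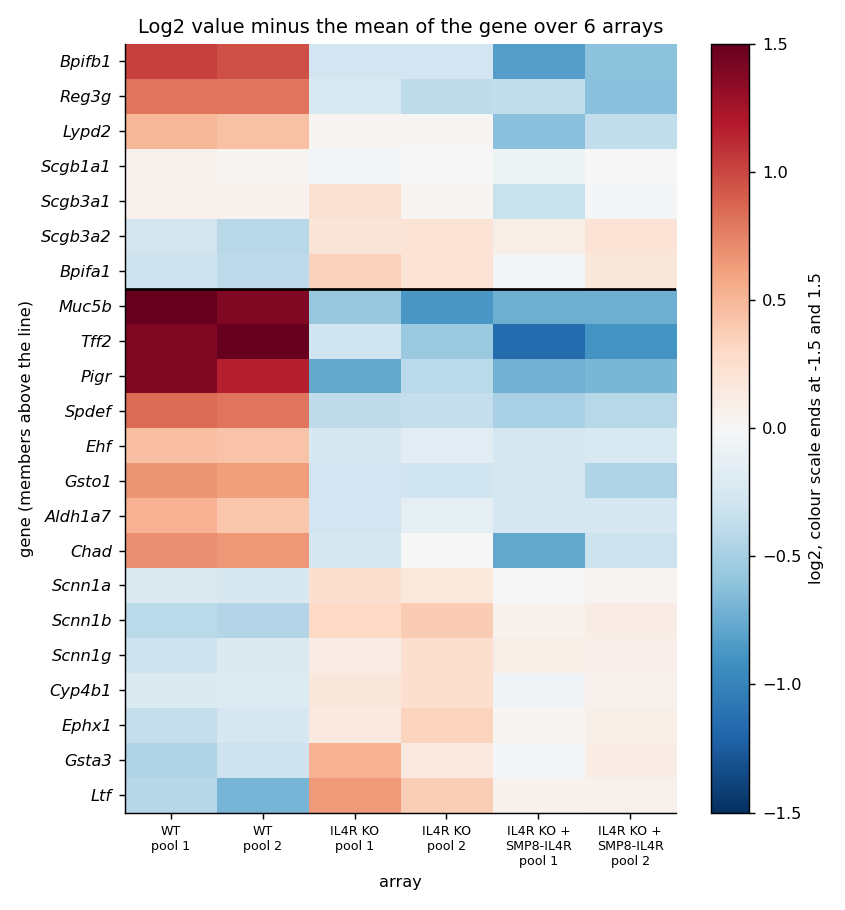
Log2 value of the 7 genes (above the line) and of 15 genes named in the text (below it) on each of the 6 arrays (columns), minus the mean of the gene over the 6 arrays, with red above and blue below that mean and the colour scale ending at -1.5 and 1.5. Bpifb1, Reg3g and Lypd2 are red in both WT pools together with Muc5b, Tff2 and Pigr, and Scgb3a2 and Bpifa1 are blue there together with the 3 sodium channel subunits.

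Genes whose values over the 6 arrays were most like those of each gene were found by Pearson correlation, among about 736 tested genes with an SD of at least 0.3. With 3 groups of 2 pools such a correlation mostly follows the group means, and it is given as a description. Closest to Bpifb1 were Corin (r = 0.997), Tff2 (0.996) and Matk (0.994), and closest to Reg3g were Gsto1 (0.994), the mannose receptor gene Mrc1 (0.994) and Tmprss4 (0.993). Closest to Lypd2 were Lrrc26 (0.991), Dnah8 (0.968) and Chad (0.967), and the same Chad (0.920) and Dnah8 (0.911) came with AU021092 (0.910) for Scgb1a1, whose own SD was 0.05. Closest to Scgb3a1 were Rasd1 (0.951), Ces1e (0.911) and Synpo2l (0.907). For Scgb3a2 they were the immunoglobulin heavy chain gene Ighm (0.988, with a probe set that differed by -1.04 between WT and IL4R KO, while others of its 11 went up to 0.67), Gfra1 (0.981) and the water channel gene Aqp4 (0.976). For Bpifa1 they were 3 striated muscle genes, Ryr2 (0.993), Ckmt2 (0.990) and Tnnt2 (0.987), which differed by -0.72, -0.92 and -0.74 between WT and IL4R KO (other probe sets gave -0.28 for Ryr2 and as little as -0.40 for Tnnt2). The part of heart muscle RNA in the Bpifa1 values was not tested.

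Markers of upper airway and neighbouring tissue were mostly low. Of 13 genes of the trachea and large airway wall with a probe set, 12 were below the median in at least 5 arrays, at 3.47 to 6.53, and the basal cell keratin Krt5 differed by 0.27 between WT and IL4R KO (adjusted p = 0.149) and by -0.15 between transgenic and IL4R KO lungs (adjusted p = 0.515). Thyroid markers (4 of 5 untested, at 4.01 to 6.83) and oesophageal markers (4 of 6 untested, at 4.14 to 6.39) were also mostly below the median. The tested ones were Iyd (7.75 to 8.50) of the thyroid list, and Krt6a (7.26 to 7.51) and Ecm1 (11.08 to 11.50) of the oesophageal list. The mean log2 value of 5 neuroendocrine genes was 5.07 to 5.32, and that of 9 alveolar type 2 genes 13.3 to 13.4. The 3 tested basal cell genes did not pass between WT and IL4R KO.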

How the data were processed

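Whole lung RNA from 6 pools was measured on Affymetrix mouse 430 2.0 arrays. The log2 values were deposited by the authors and made with RMA, per the submitters' processing notes. RMA's version is not given in the sources used here. RMA corrects background, quantile-normalizes and summarises probes. Differences among dim and among very bright signals can be compressed in such array values. The value table holds no detection calls, and the number of arrays limits the precision. Genes were named from the platform annotation: 34945 probe sets named 1 gene, 932 several and 9160 none, after 64 controls were left out. Each gene was read by its brightest probe set (mean over arrays), and tested if 2 or more arrays exceeded the table's median (11861 genes, the 7 members among them). With 2 arrays per group, a gene high in a single group could be tested through that group alone. Group means were fitted with limma 3.58.1 in R 4.3.3 over all 6 arrays (3 residual and 2.86 prior degrees of freedom), with Benjamini-Hochberg adjustment over all genes and a threshold of 0.05. Adjusted p-values come from this limma fit unless the sentence names another limma fit. Pools of the same number were not treated as pairs. P-values set each difference against the spread between pools of the same group, shared over the 3 groups and moderated over all genes. They do not cover the spread between single mice. A second fit covered all 45037 probe sets. The script was tested on simulated data. Members, lists and the rule for named genes (the members, up to 3 genes of lowest p per list and comparison, and the 3 most alike genes per member) were chosen with earlier results of these data known. Each comparison was repeated under 16 alternatives.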

Additional observations from a re-analysis of the deposited data

How the results depend on the processing

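Between WT and IL4R KO, 4 of the 7 genes passed. The count was 2 without both arrays that held liver transcripts (Bpifb1 and Reg3g), 1 to 4 when 1 pool was left out, and 4 or 5 under the other alternatives. Bpifb1 was the gene that passed without either WT pool. Between transgenic and IL4R KO lungs the count was 0 under all 16 alternatives, including each pool left out (0 to 0). Between transgenic and WT lungs 4 passed, 2 to 5 when 1 pool was left out and 3 to 5 otherwise. Directions reversed for differences near 0 that did not pass: Scgb3a1 in WT against IL4R KO was 0.036 without both arrays with liver transcripts and 0.028 without IL4R KO pool 1, in a range of -0.17 to 0.03 over pools left out. In transgenic against IL4R KO lungs, Scgb1a1 was 0.014 (range -0.068 to 0.014) and Scgb3a2 0.013 (range -0.11 to 0.013) without transgenic pool 1. Correlations of pool differences over genes were -0.51 (WT and IL4R KO), -0.09 (WT and transgenic) and 0.12 (IL4R KO and transgenic). Liver transcripts were high in IL4R KO pool 1 and WT pool 2, so the first value cannot tell whether pools were paired. With the pool number as a replicate block, 4, 0 and 3 of the 7 genes passed in the 3 comparisons, and Scgb3a2 in transgenic against WT lungs was the call that it changed. The number of genes that passed over the whole table moved more. For WT against IL4R KO it was 557, against 110 to 1519 when 1 pool was left out and 300 with just the groups compared. For transgenic against IL4R KO it was 12, against 0 to 177 and 0, and 5 without a filter, 6 under a stricter filter, 7 when probe sets were summarised by their median, taken singly or arrays centred, and 19 with a robust intensity trend. For transgenic against WT it was 337, against 77 to 910 and 910. A lone pool left in a group was assumed to vary like the other groups. Of 28 genes of the other lists that passed between transgenic and WT lungs, 21 did so without both arrays with liver transcripts, chosen after seeing the data.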
